A study of Hordeum vulgare with 12 samples.

Results

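Small RNAs of barley roots were compared between plants given a nitrogen excess and control plants, using all 6 root libraries of a series of 12. Every sequence listed in the deposited root table was used: 3258 sequences of 17 to 28 nt carrying plant miRNA names, of which 607, from 343 miRNA families, had a count in at least 1 root library. All plants were Hordeum vulgare of the cultivar Golden Promise, grown in perlite and taken at an age of 2 weeks. The 3 control libraries came from plants on a medium with 28 mM NH4NO3, and the 3 nitrogen-excess libraries from plants on the same medium with 280 mM NH4NO3. Both media held 20 mM KH2PO4, 4 mM K2SO4 and 8 µM CuSO4, so the supply of phosphate, sulfate and copper was the same by label. The labels describe 3 biological replicates, and none of the sources used here says how many plants went into a library. Whole roots were used, and fewer cells of a type and less small RNA per cell cannot be told apart.

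Plant miRNAs of 20 to 22 nt are cut from hairpin precursors as a duplex of a 5p and a 3p arm, and usually 1 arm is loaded into an ARGONAUTE protein and guides it to matching transcripts. Several families are tied to nutrition: miR399 and miR827 act in phosphate uptake and storage, miR395 in sulfate assimilation, miR397, miR398, miR408 and miR528 on transcripts of copper proteins, and miR169 and miR444 on transcription factors of the NF-YA and MADS-box classes that have been linked to nitrogen supply in Arabidopsis and rice. Other families (miR156, miR160, miR164, miR166, miR167, miR171, miR319, miR396) set growth, organ pattern and auxin response.

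The sequences on which the comparison turned are printed below as the deposited tables list them, in DNA letters, 5′ to 3′, with the seed (bases 2 to 8) in capitals. The first 4 are the phosphate miRNAs, the next 4 belong to miR169 and the next 4 are copper miRNAs. The last 5 are the most abundant root sequence, 2 sequences with negative changes over 6 libraries and 2 star-arm sequences with positive ones. The levels of these last 5 overlapped between the groups.
bdi-miR827-5p: tTTTGTTGgttgtcatctaacc
bdi-miR827-3p: tTAGATGAccatcagcaaaca
osa-miR399d: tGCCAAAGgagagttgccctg
ata-miR399b-3p: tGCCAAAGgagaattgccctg
bdi-miR169k-3p: gGGCAAGTcagcctggctacc
ata-miR169f-3p: gGCAAGTCcgtccttggctaca
ata-miR169i-3p: gGCAGTCTccttggctagc
bdi-miR169d: tAGCCAAGaatgacttgccta
bdi-miR397b-5p: aTTGAGTGcagcgttgatgaa
ata-miR398g-3p: tGTGTTCTcaggtcgcccccg
ata-miR408-5p: cAGGGATGgagcagagcaagg
tae-miR408: cTGCACTGcctcttccctggc
hvu-miR166b: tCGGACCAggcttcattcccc
hvu-miR171-3p: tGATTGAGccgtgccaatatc
hvu-miR6187: tGAACAGGttcggcgacctca
ata-miR160c-3p: gCGTGCAAggagccaagcatg
ata-miR164c-3p: cACGTGTTcttctcctccatc

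The prefixes name the species under which a sequence was catalogued (hvu barley, bdi Brachypodium, ata Aegilops, osa rice, tae wheat), and they do not say where the barley copy lies. The miR399 entries share 1 seed, as do 9 tested miR165 and miR166 entries, so reads of near-identical family members may be split between entries. For this reason family sums are given beside single sequences.

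The 6 libraries were unlike each other before any treatment was considered. Counts over the listed sequences ranged from 451297 (nitrogen-excess root 1) to 1633631 (control root 1), and these totals are not sequencing depth. Each library was placed on a scale with the mean of the other shoot libraries at 0 and the mean of the other root libraries at 1, over 178 sequences. On it 5 root libraries lay between 0.79 and 1.45, and the library labelled control root 3 lay at -0.24. Among the shoots, the one labelled nitrogen-excess shoot 3 was at 1.01 and the other 5 were at -0.32 to 0.15. The library names fall into 3 naming series: A (control root 1 and nitrogen-excess root 1), B (control roots 2 and 3 and nitrogen-excess root 2) and C (nitrogen-excess root 3 alone). Of the sequences with a count, 179 were seen only in nitrogen-excess root 3, against 8 to 23 in each other library. Results are therefore given with all 6 libraries, without the library labelled control root 3, and within the pairs of replicate 1 (both of series A) and replicate 2 (both of series B). The pair of replicate 2 leaves out the library labelled control root 3, although its name is of series B.

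Over all 6 libraries no sequence and no family was called. Of 146 sequences with enough counts to test, 0 were called (0%) at the threshold used throughout, a Benjamini-Hochberg adjusted p below 0.05 in edgeR's quasi-likelihood count model (lowest adjusted p = 0.955). Only bdi-miR169k-3p had an unadjusted p below 0.05 (0.685%), while DESeq2 gave 10 such sequences and also called 0. Groups that did not overlap were found for 8 sequences higher (5.48%) and 4 lower (2.74%) under nitrogen excess. Among 65 families, 0 were called, 0 had an unadjusted p below 0.05, and 1 (miR5072, 1.54%) had groups that did not overlap. The authors' deposited table likewise holds 0 sequences with an adjusted p below 0.05 among 595 with a p-value, its lowest adjusted p being 0.958. Levels below are CPM (counts per 1000000 after TMM scaling of library totals), and changes are log2 fold changes of nitrogen excess over control with their standard errors.

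Without the library labelled control root 3, more sequences had an unadjusted p below 0.05 than over 6 libraries. The 10 sequences with an unadjusted p below 0.05 (6.41%; 10 more sequences were tested here than over 6 libraries) were all 4 tested phosphate miRNAs, 3 miR169 sequences and 2 copper miRNAs, each with a positive change, and hvu-miR171-3p with a negative one. In edgeR's quasi-likelihood test 0 sequences were called after adjustment (0%; lowest adjusted p = 0.268, for bdi-miR827-5p). DESeq2 called 4, all phosphate miRNAs. The groups did not overlap for 14 sequences that were higher (8.97%) and 24 that were lower (15.4%). Of 69 families, 8 (11.6%) lay wholly higher and 8 wholly lower, 8 had an unadjusted p below 0.05, and miR827 was called (1.45% of families). Leaving out nitrogen-excess root 3 instead gave no such gain. Of 150 sequences tested then, 0 had an unadjusted p below 0.05 in edgeR (lowest adjusted p = 0.997). The groups did not overlap for 8 that were higher and 4 that were lower.

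A paired fit of replicates 1 and 2, with the pair as a term, set aside both replicate 3 libraries. In it 7 of 140 sequences were called (5%), 5 higher and 2 lower, where the same 4 libraries without the term gave 0, as did all 6 libraries with the naming series as a term. The 5 higher were ata-miR398g-3p, bdi-miR827-5p, ata-miR408-5p, bdi-miR827-3p and bdi-miR397b-5p, and the 2 lower were hvu-miR6187 and hvu-miR166b. Over up to 6 settings of this fit, the calls of ata-miR398g-3p, bdi-miR827-5p and hvu-miR6187 held in 6 of 6. Those of ata-miR408-5p, bdi-miR827-3p and bdi-miR397b-5p held in 5 of 6, with highest edgeR, DESeq2 or limma-voom adjusted p-values of 0.0814, 0.145 and 0.212. An unadjusted p below 0.05 was found for 22 sequences (15.7%), and both nitrogen-excess libraries lay above both controls for 18 (12.9%) and below them for 23 (16.4%). Of 62 families 0 were called (0%; edgeR, lowest adjusted p = 0.0527). This fit has 1 residual degree of freedom per sequence and takes most of its estimate of spread from the other sequences. Its calls therefore do not show that the 2 pairs agreed for a given sequence.

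**Figure D1:**
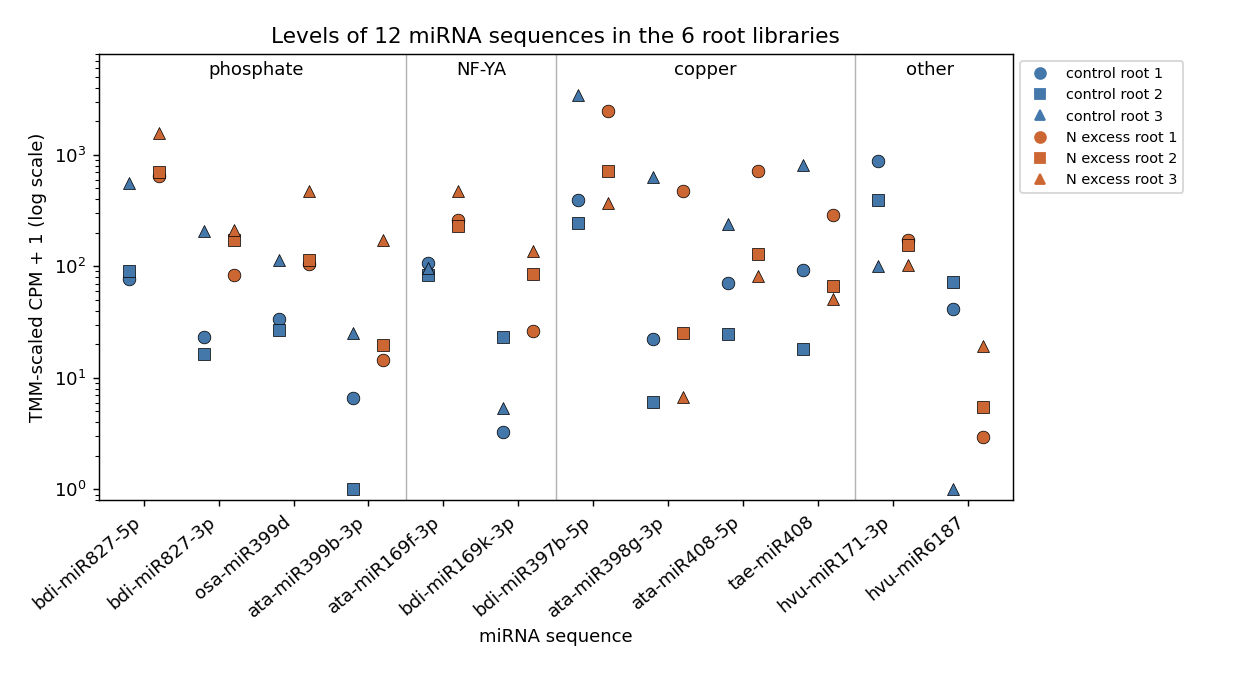
Levels of 12 sequences in the 6 root libraries, as TMM-scaled CPM plus 1 on a log axis; blue symbols are control libraries, orange ones nitrogen excess, and the shape gives the replicate number. For the phosphate miRNAs the blue triangle (control root 3) sits well above the other controls, and for the copper miRNAs it is at or near the top.

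The phosphate miRNAs had positive changes in every fit made. Of 68 listed members of the phosphate families, 10 had a count and 4 passed the filter on low counts, namely 2 sequences each of miR827 and miR399. miR827 represses SPX-domain phosphate transporters of the vacuole in rice and the ubiquitin ligase NLA in Arabidopsis, and it accumulates when phosphate is short. bdi-miR827-5p was at 76.3, 90.7 and 555 CPM in control roots 1 to 3 and at 644, 695 and 1555 CPM in nitrogen-excess roots 1 to 3. The lowest nitrogen-excess library lay above the highest control, and that control was the library labelled control root 3. The change was 2.00 ± 1.04 over 6 libraries, from 241 ± 272 to 965 ± 512 CPM (SD, n = 3 each), and was not called (edgeR adjusted p = 0.955).

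Without the library labelled control root 3, bdi-miR827-5p stood at 3.69 ± 0.97 (edgeR adjusted p = 0.268), and without nitrogen-excess root 3 at 1.48 ± 1.21. The log2 ratios of nitrogen excess over control were 3.07 in replicate 1 and 2.93 in replicate 2, and 0.32 for nitrogen-excess root 2 over the library labelled control root 3. In the paired fit it rose by 3.00 ± 0.68 (edgeR adjusted p = 0.0016). Over 6 settings of that fit the changes ran from 2.84 to 3.72.

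The other arm, bdi-miR827-3p, is the one known to guide target cleavage in rice and Arabidopsis. It was at 22.5, 15.4 and 205 CPM in control and 83.2, 170.8 and 209 CPM in nitrogen excess. Here the library labelled control root 3 matched the highest nitrogen-excess library, and the other controls lay below all 3. The change was 0.93 ± 1.12 over 6 libraries and 3.18 ± 1.07 without control root 3, and in the paired fit the sequence rose by 2.64 ± 0.73 (edgeR adjusted p = 0.00943). The 3p arm was the minor one in all 6 libraries, with 14.5% to 26.9% of the counts of both arms in control and 11.4% to 19.7% in nitrogen excess.

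Summed over its 3 sequences with a count, the miR827 family was at 82.9, 103 and 928 CPM in control and 845, 697 and 1897 CPM in nitrogen excess. It stood at 1.62 ± 1.12 over 6 libraries. Without the library labelled control root 3 it rose by 3.63 ± 1.05 (edgeR adjusted p = 0.0449), the only family called there. The spread behind that call was pooled almost wholly over all tested families and hardly came from miR827 itself. That call held with DESeq2, DESeq2 size factors and equal totals and was lost with limma-voom and when the miR166 sequences were removed before scaling (lowest adjusted p of any family 0.0745 and 0.0665).

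miR399 targets PHO2, the ubiquitin-conjugating enzyme that removes phosphate transporters from the root. osa-miR399d was at 32.6, 25.7 and 112 CPM in control and at 104, 112 and 469 CPM in nitrogen excess. The library labelled control root 3 lay level with nitrogen-excess roots 1 and 2, and nitrogen-excess root 3 lay above all. Its change was 2.00 ± 1.06 over 6 libraries, 3.22 ± 1.13 without control root 3 and 0.92 ± 1.18 when nitrogen-excess root 3 was left out. The ratios within replicates 1 and 2 were 1.67 and 2.08 on the log2 scale, and in the paired fit the change was 1.89 ± 0.70 (edgeR adjusted p = 0.0857).

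The second miR399 sequence was scarcer. ata-miR399b-3p had 5, 0 and 39 counts in control and 7, 17 and 540 in nitrogen excess, so that most of its counts came from nitrogen-excess root 3. A count of 0 in control root 2 allows up to 5.14 CPM. It stood at 2.71 ± 1.43 over 6 libraries, 4.83 ± 1.65 without control root 3, and 0.64 ± 1.55 without nitrogen-excess root 3.

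Taken as a list, the 4 phosphate sequences had a median change of 2.00, with 4 of 4 positive, while all 146 tested sequences had a median of -0.27 with 57 positive. The median was 3.46 without the library labelled control root 3, 0.79 without nitrogen-excess root 3 and 2.58 in the paired fit, where 2 of 4 were called. All 4 were positive in each of 29 settings of scaling, filter, test and libraries, in which the median ran from 0.37 to 4.80. The lowest value came from series B alone, which sets the library labelled control root 3 and control root 2 against nitrogen-excess root 2. Summed over all 10 sequences with a count, the phosphate families took 0.00747%, 0.0067% and 0.219% of listed counts in control and 0.0968%, 0.0654% and 0.477% in nitrogen excess. Nitrogen-excess root 3 held the largest share and the library labelled control root 3 the second largest.

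The miR169 sequences, whose family targets the NF-YA transcription factors and falls under nitrogen starvation in Arabidopsis, also had positive changes, in all tested members over 6 libraries and in 25 of 29 settings. Of 97 listed members 31 had a count and 7 were tested. Most of these were 3p entries, the arm opposite to the one generally known to act on targets. ata-miR169d-5p, with a change of 0.80, shares its seed with bdi-miR169d, whose groups overlapped. bdi-miR169k-3p was at 2.25, 22.3 and 4.38 CPM in control and 25.1, 84.3 and 138 CPM in nitrogen excess. The groups did not overlap, although control root 2 came close to nitrogen-excess root 1, and 2 of the controls rested on under 10 counts. Its change of 3.15 ± 1.19 was the largest positive one of the 146 (edgeR unadjusted p = 0.0227, adjusted p = 0.955). It stood at 2.89 ± 1.30 without control root 3, at 2.54 ± 1.38 without nitrogen-excess root 3 and at 2.41 ± 0.91 in the paired fit (edgeR adjusted p = 0.0857).

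ata-miR169f-3p was the steadiest member across controls. It was at 106, 82.2 and 95.2 CPM in control and 257, 228 and 469 CPM in nitrogen excess, with no overlap and with the library labelled control root 3 inside the range of the other controls. The change was 1.75 ± 0.87 over 6 libraries and 1.93 ± 0.92 without control root 3. The log2 ratios were 1.28 in replicate 1 and 1.46 in replicate 2, and 1.26 for nitrogen-excess root 2 over the library labelled control root 3.

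The remaining miR169 sequences varied more with the library. ata-miR169i-3p was at 25.8, 115 and 83.9 CPM in control and 58.0, 515 and 96.8 CPM in nitrogen excess, so nitrogen-excess root 2 carried most of the difference. bdi-miR169d was at 6.74, 20.5 and 53.2 CPM in control and 11.6, 65.4 and 201 CPM in nitrogen excess, where nitrogen-excess root 3 did. As a list, 7 of 7 were positive with a median of 1.75, which was 2.68 without control root 3, 0.71 with nitrogen-excess root 3 left out and 1.29 in the paired fit. The family sum stood at 1.55 ± 0.94 over 6 libraries and 2.05 ± 0.98 without control root 3 (edgeR adjusted p = 0.367).

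The copper miRNAs changed direction with the libraries used. miR397 targets laccases, miR398 the copper/zinc superoxide dismutases, miR408 plantacyanin-type copper proteins and laccases, and miR528 ascorbate oxidase and laccase transcripts in monocots. Of 59 listed members 24 had a count and 9 were tested, including ata-miR528-3p and the entry OLAs_528, which hold nearly the same counts. bdi-miR397b-5p was at 395.1, 245 and 3419 CPM in control and at 2466, 710 and 367 CPM in nitrogen excess. The library labelled control root 3 was the highest of all 6, and nitrogen-excess root 3 lay within the range of the other controls. The change was -0.20 ± 1.15 over 6 libraries and 1.87 ± 0.91 without control root 3. In the paired fit bdi-miR397b-5p rose by 2.09 ± 0.66 (edgeR adjusted p = 0.0369), a call lost in 1 of 6 settings. The log2 ratios were 2.64 in replicate 1 and 1.53 in replicate 2, and -2.27 for nitrogen-excess root 2 over the library labelled control root 3.

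ata-miR398g-3p showed the same split more sharply. It had 19, 3 and 1010 counts in control and 245, 22 and 18 in nitrogen excess, or 21.3, 5.14 and 632 CPM against 474, 24.4 and 5.73 CPM. High levels were thus found in the library labelled control root 3 and in nitrogen-excess root 1, and nitrogen-excess root 3 lay as low as control root 2. The change was -0.40 ± 1.71 over 6 libraries and 3.60 ± 1.57 without control root 3. In the paired fit it rose by 3.76 ± 0.83 (edgeR adjusted p = 0.0016), while nitrogen-excess root 2 over the library labelled control root 3 gave a log2 ratio of -4.66.

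The arms of miR408 differed. ata-miR408-5p was at 69.6, 24 and 241 CPM in control and 710, 128 and 81.5 CPM in nitrogen excess, a change of 1.45 ± 1.16 over 6 libraries. It rose by 2.92 ± 0.71 in the paired fit (edgeR adjusted p = 0.0029). tae-miR408, which is the arm that cleaves the copper protein transcripts, was at 90.9, 17.1 and 813 CPM in control and 290, 65.4 and 50.3 CPM in nitrogen excess. Its change was -1.19 ± 1.31 over 6 libraries, 1.36 ± 1.08 without control root 3 and 1.80 ± 0.67 in the paired fit (edgeR adjusted p = 0.0857).

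Over 6 libraries 2 of 9 copper sequences were positive, with a median of -0.40. Without the library labelled control root 3, 9 of 9 were positive with a median of 1.87, and 9 of 9 with a median of 2.09 in the paired fit, where 3 were called. The split was 5 of 9 positive without nitrogen-excess root 3 (median 0.12) and without nitrogen-excess root 2 (0.07), and 1 of 9 without nitrogen-excess root 1 (-1.91). Their summed share of listed counts was 0.0372%, 0.0165% and 1.41% in control and 0.489%, 0.0676% and 0.128% in nitrogen excess. Scaled to its library's total (counts per 1000000 listed counts), bdi-miR397b-5p was at 8337 in the library labelled control root 3. It was at 352 to 1062 in the 3 control shoots and at 7690, 2659 and 905 in nitrogen-excess shoots 1 to 3. The part of that library's placement in the copper result was not tested beyond leaving it out.

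The sulfate miRNAs were scarce. miR395 targets ATP sulfurylase and a sulfate transporter. Of 60 listed members 11 had a count and 3 were tested, and all 3 had positive changes, with a median of 1.09. gma-miR395h was at 3.37, 12 and 14.4 CPM in control and at 11.6, 32.2 and 19.7 CPM in nitrogen excess, with overlapping groups. cme-miR395f was at 7.86, 6.85 and 13.1 CPM and at 5.80, 31.1 and 25.8 CPM. The changes were 1.09 ± 0.97 and 1.16 ± 0.98.

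**Figure D2:**
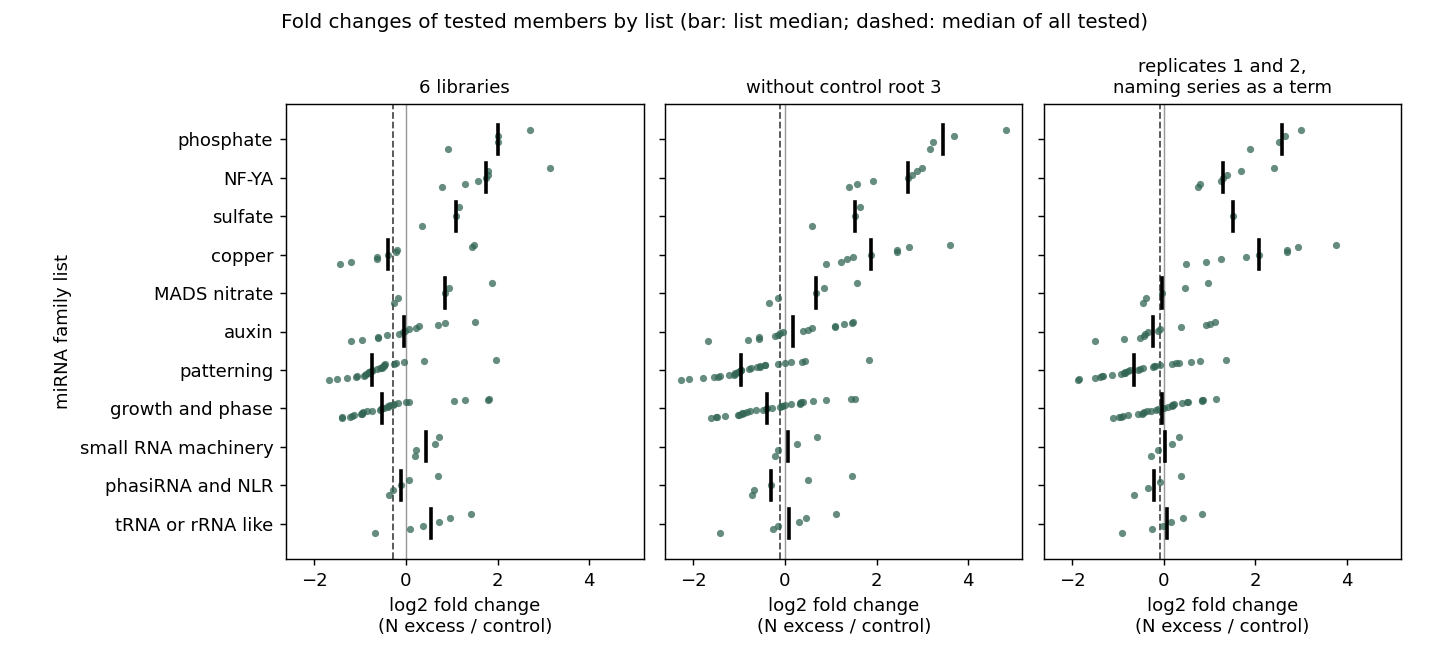
Log2 fold change of each tested member of 11 family lists (points), with the list median (bar) and the median of all tested sequences (dashed line), for all 6 libraries, without the library labelled control root 3, and for the paired fit of replicates 1 and 2. The phosphate and NF-YA points lie right of 0 in the 3 panels, while the copper median moves from -0.40 to 1.87 and 2.09.

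**Figure D3:**
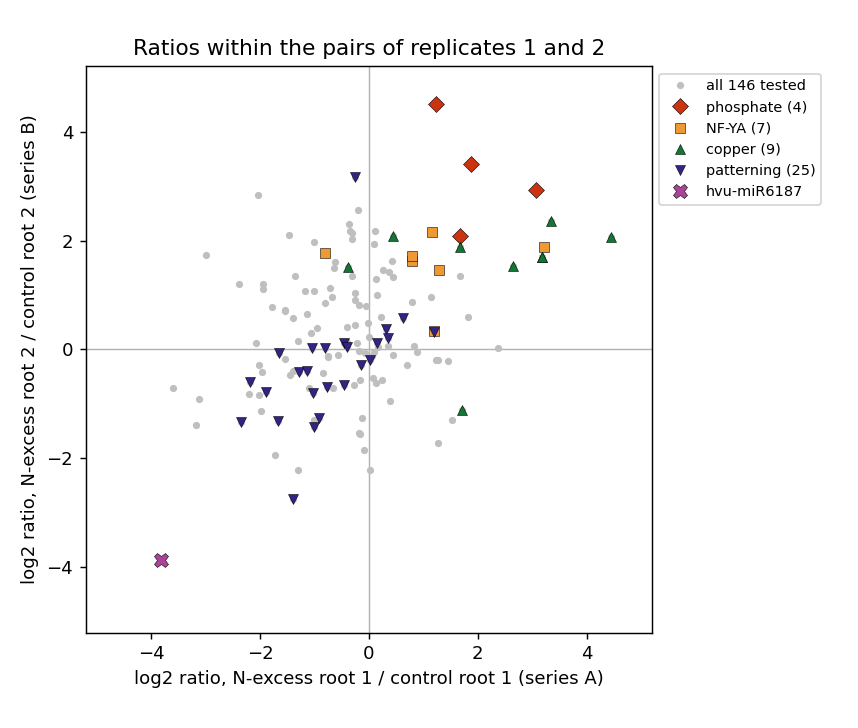
Log2 ratio of nitrogen excess over control in replicate 2 against that in replicate 1, for the 146 tested sequences with 4 family lists and hvu-miR6187 marked. The 4 phosphate sequences lie in the upper right corner, with both ratios above 1.

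The ratios within replicate 1 and replicate 2 share no library, and they could be set side by side. Over the 146 tested sequences both ratios were positive for 39, both negative for 43 and opposite for 64, and Pearson's r across sequences was 0.39, given as a description because sequences are not independent and the libraries were scaled together. Ratios above 1 in both replicates were found for 14 sequences, of which 4 were phosphate, 6 copper and 3 miR169 sequences. Of the 14, nitrogen-excess root 2 also lay above the library labelled control root 3 for 6, namely 2 phosphate, 3 miR169 and 1 sulfate sequence, and for 0 of the 6 copper sequences. A count of 0.5 was added before taking ratios, and some ratios rested on few counts. In replicate 1, gma-miR395h had 3 counts in control and 6 in nitrogen excess, and ata-miR399b-3p had 5 and 7. Ratios below -1 in both were found for 10, of which 4 belonged to the patterning families.

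miR444, a monocot family that acts on MADS-box transcription factors in the nitrate signalling of rice, was split. Of 5 tested sequences 3 were positive. The most abundant, osa-miR444b.1, was at 10533, 7006 and 7014 CPM in control and 5008, 8626 and 8143 CPM in nitrogen excess, with overlapping groups (-0.17 ± 0.77). osa-miR444d.3 was at 40.4, 10.3 and 1.25 CPM in control and 42.6, 42.1 and 106 CPM in nitrogen excess. These groups did not overlap, although control root 1 was nearly level with the lowest nitrogen-excess library (1.89 ± 1.19).

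The miR166 sequences restrict HD-ZIP III transcription factors in the vascular cylinder of the root. Together these sequences made up 46.9% (nitrogen-excess root 3) to 80.6% (control root 1) of listed counts. hvu-miR166b alone took 79.8%, 63.7% and 57.6% of listed counts in control and 69.0%, 61.5% and 46.2% in nitrogen excess. The 95% Wilson interval was 79.7% to 79.8% for the highest share and 46.1% to 46.2% for the lowest, and such intervals cover counting error only. The groups overlapped, and in each of replicates 1 and 2 the nitrogen-excess library held the smaller share, although nitrogen-excess root 2 held more than the library labelled control root 3. Scaled by TMM, hvu-miR166b stood at -0.73 ± 0.92 over 6 libraries. In the paired fit it fell by 0.85 ± 0.23 on the log2 scale (edgeR adjusted p = 0.0086), and over the alternatives of that fit its change ran from -0.85 to -0.13, with 3 of 5 settings calling it.

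The patterning list held miR164, miR165, miR166 and miR171. Of its 138 members 47 had a count and 25 were tested, and 23 of 25 had negative changes, with a median of -0.73. The size of this lean changed with scaling: with equal totals 18 of 25 were negative with a median of -0.19. Without control root 3 the median was -0.95 with TMM and 0.17 with equal totals. The median of all tested sequences moved as well, from -0.27 to 0.09 over 6 libraries and from -0.10 to 1.00 without control root 3. The list's median lay above that of all tested sequences in 0 of 29 settings.

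hvu-miR171-3p, of a family that targets GRAS transcription factors of the HAM type, was at 886, 389 and 99.5 CPM in control and 172.2, 154 and 101 CPM in nitrogen excess. Control roots 1 and 2 lay above all 3 nitrogen-excess libraries, and the library labelled control root 3 lay level with the lowest. Its change was -1.68 ± 0.99 over 6 libraries and -2.08 ± 0.80 without control root 3 (edgeR unadjusted p = 0.0198, adjusted p = 0.604). It kept a negative sign with equal totals (-0.89). Another sequence of the family, ata-miR171a-3p, was at 7171, 8764 and 93.3 CPM in control and 2267, 8374 and 3130 CPM in nitrogen excess, and stood at -0.22 ± 1.22.

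hvu-miR6187, a miRNA catalogued in barley, had the most negative change in the paired fit. It had 36, 42 and 0 counts in control and 1, 4 and 58 in nitrogen excess. Within replicates 1 and 2 the control library held nearly all counts, while the library labelled control root 3 had none, which allows up to 1.88 CPM, and nitrogen-excess root 3 held more than the other libraries of its group. It fell by 4.13 ± 1.07 on the log2 scale in that fit (edgeR adjusted p = 0.00642) and stood at -2.06 ± 1.49 over 6. Among the 6 shoot libraries it had at most 4.1 per 1000000 listed counts.

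Auxin-related families gave no common direction. miR160 and miR167 target auxin response factors, miR393 the TIR1-type auxin receptors, and miR390 triggers tasiRNAs from TAS3. Of 14 tested sequences 6 were positive and 8 negative, with a median of -0.04. ata-miR167d-5p was at 11494, 6586 and 9303 CPM in control and 4368, 9845 and 3652 CPM in nitrogen excess, with overlapping groups (-0.62 ± 0.81). ata-miR167f-5p was at 1573, 1440 and 6914 CPM in control and 1273, 6364 and 1872 CPM in nitrogen excess, and its change turned from -0.06 ± 0.98 over 6 libraries to 1.09 ± 0.81 without control root 3.

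Among the families of growth and phase change, 22 of 27 tested sequences had negative changes, with a median of -0.53, against 89 of 146 and a median of -0.27 over all tested sequences. Without the library labelled control root 3 the list's median was -0.38, and in the paired fit 14 of 27 were negative with a median of -0.04. hvu-miR156a, of a family that represses SPL transcription factors and delays the adult phase, was at 80.8, 61.6 and 124 CPM in control and 29.0, 44.4 and 28.3 CPM in nitrogen excess. The groups did not overlap (-1.39 ± 0.89), and it stood at 0.07 with equal totals and control root 3 left out. gma-miR156q, which shares its seed, was also lower in all 3 nitrogen-excess libraries (-0.96 ± 0.84). ata-miR396e-3p was at 281, 312 and 44.5 CPM in control and 139, 1227 and 876 CPM in nitrogen excess, with overlapping groups (1.82 ± 1.08). The abundant members hvu-miR159b, which targets GAMYB factors, and bdi-miR319b-3p, which targets TCP factors, stood at 0.07 ± 0.79 and -0.16 ± 0.94.

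hvu-miR168-5p, which targets ARGONAUTE1 and so feeds back on the miRNA machinery, was the second most abundant miRNA. The 10 detected sequences of its list took 6.99%, 9.0% and 10.7% of listed counts in control and 11.1%, 12.8% and 22.6% in nitrogen excess. All 3 nitrogen-excess shares were above all 3 controls. On equal totals, 15 of the 146 tested sequences likewise lay wholly higher and 1 wholly lower. The TMM-scaled level of hvu-miR168-5p overlapped between groups, at 128033, 177028 and 44037 CPM against 96888, 195778 and 114549 CPM (0.22 ± 0.83). All 4 tested members of the list had positive changes over 6 libraries, with a median of 0.43, and without the library labelled control root 3 the split was 2 and 2 with a median of 0.06.

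The remaining lists gave no called member over 6 libraries. Of 5 tested triggers of phased siRNAs and regulators of NLR resistance genes, 2 were positive, with a median of -0.11. Of 20 tested members of families named from grasses, 5 were positive, with a median of -0.61. Of 6 tested entries that resemble tRNA or rRNA fragments, 5 were positive, with a median of 0.55.

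Length classes were compared as shares of listed counts, which need no scaling between libraries. Sequences of 21 nt made up 93.7%, 78.0% and 90.5% in control and 91.5%, 80.1% and 85.8% in nitrogen excess, with overlapping groups (two-sided exact permutation p = 0.8). The 20-nt share was 1.41%, 1.38% and 0.688% in control and 2.39%, 1.80% and 3.95% in nitrogen excess, with every nitrogen-excess library above every control. The exact permutation p was 0.1, the smallest that 3 against 3 libraries can give. Most of it came from ppt-miR894, at 0.577%, 1.21% and 0.498% against 1.64%, 1.45% and 2.16%, and from ath-miR8175. Both are entries whose status as miRNAs is doubtful because they resemble tRNA or rRNA fragments. Without the miR166 sequences in the total, the 20-nt share was 6.96%, 3.70% and 1.57% against 7.92%, 4.58% and 7.31% (exact permutation p = 0.2), and the groups overlapped.

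The most abundant 18-nt sequence was gma-miR6300, another entry of that doubtful kind. It took 2.27%, 18.2% and 0.299% of listed counts in control and 2.23%, 14.4% and 2.77% in nitrogen excess. It was high in replicate 2 of both conditions.

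The 2 arms of a hairpin were compared as the 3p share of the counts of both arms in a library. Arms were read from the catalogued names alone, so entries with no arm in any name were left out. The 26 arm pairs with enough counts were not all separate, since hvu-miR166b was in 4 of them and hvu-miR159b and hvu-miR171-3p in 2 each. The smallest possible exact permutation p of 0.1 was reached by miR408, miR160, miR164 and the miR156 family, whose 3p share was 96.8% in control and 95.3% in nitrogen excess on average. The lowest adjusted p was 0.65. In the miR408 family the 3p share was 56.6%, 40% and 77.1% in control and 29.0%, 34.3% and 37.9% in nitrogen excess, a difference of -24.2 percentage points. Every nitrogen-excess library lay below every control, and control root 2 rested on 25 counts, with a 95% Wilson interval of 23.4% to 59.3%. The arm that gained was the 5p arm, ata-miR408-5p.

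For miR160 and miR164 the 3p, or star, arm held more of the counts under nitrogen excess. ata-miR160c-3p took 17.9%, 34.8% and 24.5% of its pair with ata-miR160a-5p in control and 36.6%, 61.2% and 40.1% in nitrogen excess (20.2 percentage points higher). In the miR164 family, which targets NAC transcription factors of the CUC type, the 3p share was 68.8%, 72.7% and 60% in control and 80.6%, 91.8% and 86.4% in nitrogen excess (19.1 percentage points higher). The groups did not overlap in either case, and for each the two-sided exact permutation p was 0.1. Counts for miR164 were low, with 11 in control root 2 (95% Wilson interval 43.4% to 90.3%), and the gap of ata-miR160c-3p between control root 2 and nitrogen-excess root 1 lay within their counting error. Unlike the shares, the levels of ata-miR160c-3p and ata-miR164c-3p overlapped between groups, with changes of 1.51 ± 0.95 and 1.96 ± 1.03 over 6 libraries.

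**Figure D4:**
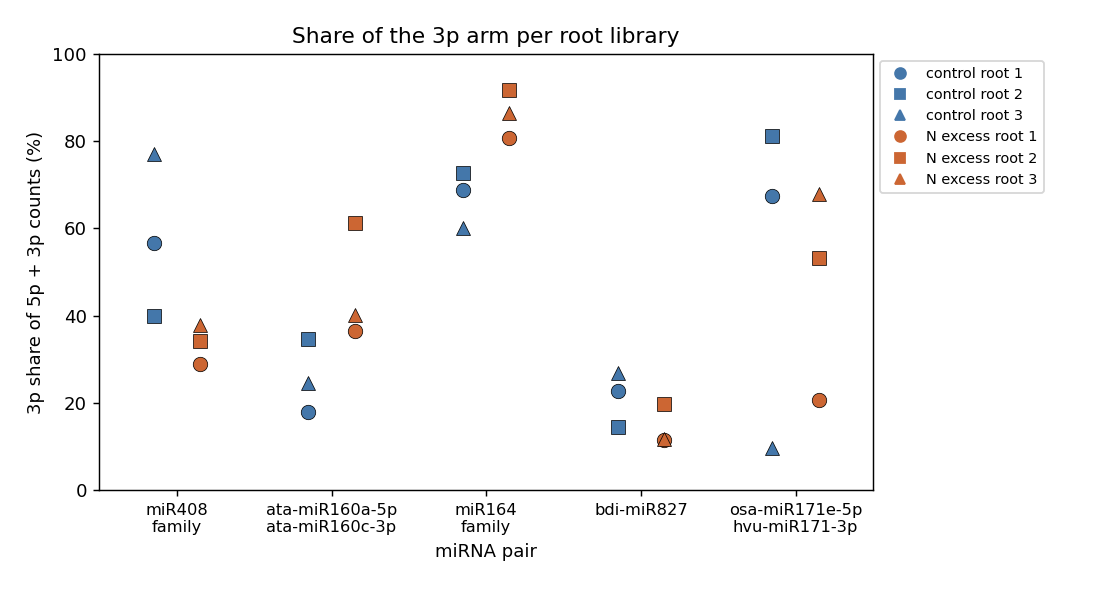
Share of the 3p arm in the counts of both arms, per root library, for 5 miRNA pairs or families; colours give the condition and shapes the replicate. The 3p share of miR408 was lower and those of miR160 and miR164 were higher in all 3 nitrogen-excess libraries, while miR827 and miR171 overlapped.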

How the data were processed

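The deposited count columns hold whole numbers per listed sequence and library. The authors' normalized signal columns equal the counts divided by 1 factor per library, and the deposited log2 fold change and p-value columns come, per the file headers, from their comparison of nitrogen excess with control. The submitters' processing notes name DESeq2, with no version. Trimming, aligner and counting tool: not given in the sources used here. Some listed sequences are contained in a longer one that had 10 counts or more. There were 66 such pairs, in which a shorter sequence can recur, and each of the shorter ones had 0 counts.

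Counts were fitted in R 4.3.3 with edgeR 4.0.16 (TMM, filterByExpr with minimum count 10 and minimum total 15, quasi-likelihood test, Benjamini-Hochberg at 0.05), with condition as the only term, for sequences and for family sums, which are scaled separately. Standard errors were taken as the size of the log2 change over the square root of F. In fits with condition as the only term, p-values measure the spread between the libraries of a group. In the paired fit they rest on how far the change differs between the pairs. DESeq2 1.42.0 and limma-voom (limma 3.58.1) were alternatives, and shares were tested with exact permutation (scipy 1.17.1). The edgeR step was tested on simulated counts. TMM-scaled CPM can exceed 1000000 for hvu-miR166b and are not printed for it.

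Sequences named were the 20 with the smallest p, the 10 most abundant, the 2 most abundant of each list, the 10 with the smallest p without control root 3 and any called, plus the 3 arm pairs with the largest difference. gma-miR156q, osa-miR156l-5p, osa-miR5072, ath-miR8175, ata-miR169d-5p, ppt-miR408b, ata-miR528-3p, OLAs_528 and the pairs of miR827 and miR171 were added after their values were seen. Members and lists were chosen with earlier results of these data known. The paired fit is the replicate block on replicates 1 and 2, where replicate number and naming series coincide.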

Additional observations from a re-analysis of the deposited data

How the results depend on the processing

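Over all 6 libraries, 0 sequences and 0 families were called under each alternative scaling, filter and test, with the replicate number as a block and with the naming series as a term. Replicate numbers were not used to pair all 6 libraries. Deviations of log2 CPM from the group means correlated at 0.15, 0.50 and -0.24 between same-numbered libraries. Between libraries of different numbers these correlations ran from -0.52 to 0.32, so the value of replicate 1 lay inside that range. Leaving out 1 library gave 0 called sequences and 0 to 1 called families, the 1 being without control root 3. With control root 3 left out, DESeq2 called 4 sequences and 2 families, and DESeq2 size factors and equal totals 1 family each. With both replicate 3 libraries left out and the replicate block, 7 sequences were called, 8 with DESeq2 size factors, 12 with equal totals, 3 without miR166, 8 with limma-voom and 7 with DESeq2. Families called in that fit were 8 with DESeq2 size factors, 8 with DESeq2 and 1 without miR166. The cause of these differences was not tested.

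Several copper sequences turned positive on the log2 scale. Without control root 3, ata-miR398g-3p stood at 3.60, and at 4.01 (DESeq2), 3.98 (DESeq2 size factors), 4.69 (equal totals) and 4.00 (without miR166). In the same order bdi-miR397b-5p stood at 2.10, 2.10, 2.97 and 2.10. Without both replicate 3 libraries they stood at 4.29 and 2.36. Leaving out 1 library moved ata-miR398g-3p between -4.09 and 3.60. In the blocked fit ata-miR398g-3p stood at 3.76, 3.83, 3.92, 4.58, 3.77 (limma-voom) and 3.53, bdi-miR397b-5p at 2.09, 2.18, 2.18, 2.81, 2.06 and 1.92, and tae-miR408 at 1.80, 1.90, 1.90, 2.54 and 1.80, in the order block alone, DESeq2, its size factors, equal totals, limma-voom and, for the first 2, without miR166. ata-miR167f-5p stood at 1.64 in the blocked fit with equal totals.

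The 21-nt difference turned positive without miR166 (3.35 percentage points) and ran from -6.33 to 1.53 when 1 library was left out. The 22-nt difference ran from -1.31 to 1.77 and the 24-nt difference from -0.0793 to 0.00771. Without both replicate 3 libraries they were 0.838 and 0.00703. The 20-nt and arm differences kept their sign in each alternative run. Depth limits the miR164 and miR160 shares, and nitrogen-excess root 1 had the fewest counts.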

Other observations

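Of the 20 sequences with the smallest p over 6 libraries, 9 carried the arm opposite to the one generally known to act on targets (the 3p arms of miR160, miR164, miR169, miR396 and miR397, and the 5p arm of miR827), and all 9 had positive changes. Opposite arms made up 45% of these 20 and 26% of the 146 tested. The grouping was made after the values were seen and was not tested. Over all tested sequences, 16 of 38 opposite arms were positive with a median of -0.33, against 7 of 30 acting arms with a median of -0.40. Without the library labelled control root 3, 21 of the 38 opposite arms were positive with a median of 0.24.

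osa-miR5072 was at 2216, 1166 and 131 CPM in control and 2426, 2858 and 2684 CPM in nitrogen excess. The groups did not overlap (1.18 ± 0.99), and control root 1 was close to nitrogen-excess root 1. tae-miR9774 stood at -2.64 ± 1.24 over 6 libraries and -0.15 ± 0.97 without the library labelled control root 3, which held 632 CPM against 25.7 to 65.1 in the other 5. Per 1000000 listed counts, ata-miR171a-3p was at 227 in the library labelled control root 3 and at 2597 to 6178 in the other root libraries, and in shoots at 140 to 383 apart from 4841 in the one labelled nitrogen-excess shoot 3.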
